A study of Homo sapiens with 4 samples.

Results

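The BCL2 family genes described here are 10 regulators of mitochondrial apoptosis, taken as every probe of the non-normalized table whose gene symbol was BCL2, BCL2L1, BCL2L2, MCL1, BCL2A1, BAK1, BID, BIK, BAD or BCL2L11. They had 21 of the 47321 probes on the array, and they are 10 of the 30908 genes of the whole table. The array software ranks each signal among negative control probes as a detection p, and detected here means a detection p below 0.01. By that measure 13 of the 21 member probes were detected on at least 1 array, 6 on all 4 arrays and 8 on none. BIK was detected on no array.

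Proteins of the BCL2 family decide whether the outer mitochondrial membrane is opened during apoptosis, which releases cytochrome c and leads to caspase activation. The anti-apoptotic members BCL2, BCL-XL (BCL2L1), BCL-w (BCL2L2), MCL1 and BFL1 (BCL2A1) bind and hold back the effector BAK (BAK1) and its relative BAX, and the BH3-only proteins BIM (BCL2L11), BID, BIK and BAD counter them. Lung cancer cells commonly depend on BCL-XL and MCL1 for survival, and MCL1 is a short-lived protein whose transcript is also spliced into a pro-apoptotic form.

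The study hybridised labelled cRNA from total RNA to Illumina bead arrays, 1 array for each of 4 groups. They are H1299 given siRNA against TET1, H1299 parent cells given vehicle, A549 given siRNA against TET1, and A549 parent cells given vehicle (the 2 vehicle groups are called controls). H1299 grew from a lymph node metastasis of a non-small cell lung carcinoma, and A549 comes from a lung adenocarcinoma. TET1 is an enzyme that oxidises 5-methylcytosine in DNA, and the design asks how its loss changes transcripts. The controls received vehicle and, as far as the labels say, no other siRNA, and the labels give neither the siRNA sequence nor the time after transfection. No group had a replicate, so a difference within a line has no measured error and no p-value.

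The arrays did not read alike. The numbers of detected probes were 14417 in the H1299 knockdown, 16883 in the H1299 control, 17107 in the A549 knockdown and 13980 in the A549 control, so the H1299 knockdown and the A549 control stood together below the other 2 arrays. Over the 12965 genes detected on at least 2 arrays, the part of the change that was opposite in the lines (0.5 times their difference) had a standard deviation of 0.92 on the log2 scale, against 0.39 for their mean change. The brighter TET1 probe, ILMN_3247163, had a raw signal of 186.8 in the H1299 knockdown against 255.9 in its control, and of 164.5 in the A549 knockdown against 222.1 in its control, and it was detected in the controls alone. The other TET1 probe, ILMN_1741056, read 137.5 in the H1299 knockdown against 182 in its control, and 152.2 in the A549 knockdown against 151.2. That probe was detected in the H1299 control alone. CDKN1A, which encodes an inhibitor of cyclin-dependent kinases, had a raw signal of 4103.6 in the H1299 knockdown against 788.3 in its control, and of 4443.4 in the A549 knockdown against 4790.5 in its control. Of 6 epithelial markers, A549 had 5 detected on both of its arrays (all but KRT18), and H1299 had only KRT8 detected. Most of these markers of the labelled bronchial epithelial source were thus not detected in H1299, and KRT18 was detected in neither line. Of 4 mesenchymal markers, VIM and CDH2 were detected on all 4 arrays. SPARC was detected on all but the H1299 knockdown, and ZEB1 in the H1299 control alone. Of markers of other cell types, CD14 was detected on all 4 arrays, COL1A1 on both A549 arrays and HBB in the A549 knockdown, while PTPRC, CD3E, LYZ and the endothelial markers PECAM1, VWF and CDH5 were detected on none.

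TET1 acts on methylated CpG sites, and 7 of the 10 members have start sites in the RefSeq promoter table (GRCh38.p14), 13 starts in all. MCL1, BCL2L2 and BIK have no entry there. The 250 bases before the start are shown for BCL2L11 and BCL2A1, which had the most and the fewest CpG sites among these 7 members. BCL2L11 also changed past 2-fold in each line, in opposite directions. A relation of CpG sites to the changes was not tested. Sequences run 5′ to 3′ on the gene's own strand, and capitals mark CG dinucleotides.
BCL2L11: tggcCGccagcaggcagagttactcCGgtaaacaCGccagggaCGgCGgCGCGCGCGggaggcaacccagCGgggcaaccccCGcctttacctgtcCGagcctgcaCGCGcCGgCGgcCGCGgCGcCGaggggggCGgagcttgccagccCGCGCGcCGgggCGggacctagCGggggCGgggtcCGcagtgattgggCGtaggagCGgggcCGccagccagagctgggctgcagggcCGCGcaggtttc
BCL2A1: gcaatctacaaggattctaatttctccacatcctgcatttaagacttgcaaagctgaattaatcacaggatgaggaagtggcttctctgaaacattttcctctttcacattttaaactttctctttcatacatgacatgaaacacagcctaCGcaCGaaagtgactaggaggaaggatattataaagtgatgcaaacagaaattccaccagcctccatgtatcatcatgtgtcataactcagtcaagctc
The BCL2L11 window lies at chr2:111120664-111120913 on the plus strand and the BCL2A1 window at chr15:79971197-79971446 on the minus strand. BCL2L11 had 34 CpG sites in its window, a number that 6.84% of the 35116 promoters in the table reached, and BCL2A1 had 2, which 85.3% reached. Among the other members BCL2 had 24, the 2 starts of BCL2L1 had 12 and 17, the 2 starts of BAD had 17 and 20, BAK1 had 5, and the 5 starts of BID had between 4 and 30. The median over all promoters was 11. The forkhead motif GTAAACA, searched on both strands, occurred once in the BCL2L11 window, at base 28, and in none of the other member windows, while 2.98% of all promoters held it. DNA methylation was not measured on these arrays.

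Each gene was read on the probe with its highest mean normalized signal, and 9 of the 10 genes were detected on at least 2 arrays. Signals were background-corrected, quantile normalized and put on the log2 scale, and a gene counted as changed within a line if it differed at least 2-fold and was detected on at least 1 of the line's 2 arrays. In H1299 the knockdown was at least 2-fold higher for 2 of 9 detected members, BCL2L11 and BID (18.6% of all detected genes were), and at least 2-fold lower for 2, MCL1 and BAD (14.8% of all). Either call was made for 33.4% of all detected genes in H1299. In A549 the knockdown was at least 2-fold higher for 3 of 8 detected members, MCL1, BAD and BCL2L1 (11.1% of all), and at least 2-fold lower for 1, BCL2L11 (8.8% of all). Either call was made for 19.9% of all detected genes in A549. The median change of the detected members was -0.02 in H1299 and 0.42 in A549, beside medians of 0.28 and -0.13 over all detected genes. By any amount, the knockdown was higher for 4 of 9 members in H1299 (61.5% of all detected genes) and for 5 of 8 in A549 (42.3% of all).

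With undetected values taken as read, MCL1, BAD and BCL2L11 were past 2-fold in opposite directions in the 2 lines, as were 11.7% of all tested genes. For BAD 1 value in each line was below background, and with these at their bounds only its A549 change was past 2-fold. Changes of opposite sign were seen for 7 of the 9 members, 4 of them lower in the H1299 knockdown and higher in the A549 knockdown (MCL1, BAD, BAK1 and BCL2L1) and 3 the other way (BCL2L11, BCL2L2 and BCL2). BAK1 also had 1 value below background in each line, and no fold can be given for it in A549. The A549 sign of BCL2 comes from values below background, and its H1299 change of 0.27 was -0.36 on its other detected probe. Opposite signs were also seen for 77.5% of all tested genes, so the members' share of 77.8% lies at the background. Because the H1299 knockdown and the A549 control are also the 2 arrays with fewer detected probes, a difference of the lines in their response and a difference between these pairs of arrays cannot be told apart. An exchange of the labels within a line would turn every direction given for it. The brighter TET1 probe, the check of the labels, was lower by at least 1.74-fold in the library labelled H1299 knockdown and by at least 3.14-fold in that labelled A549 knockdown, both near the detection limit. On the other TET1 probe no fold can be given in either line.

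**Figure D1:**
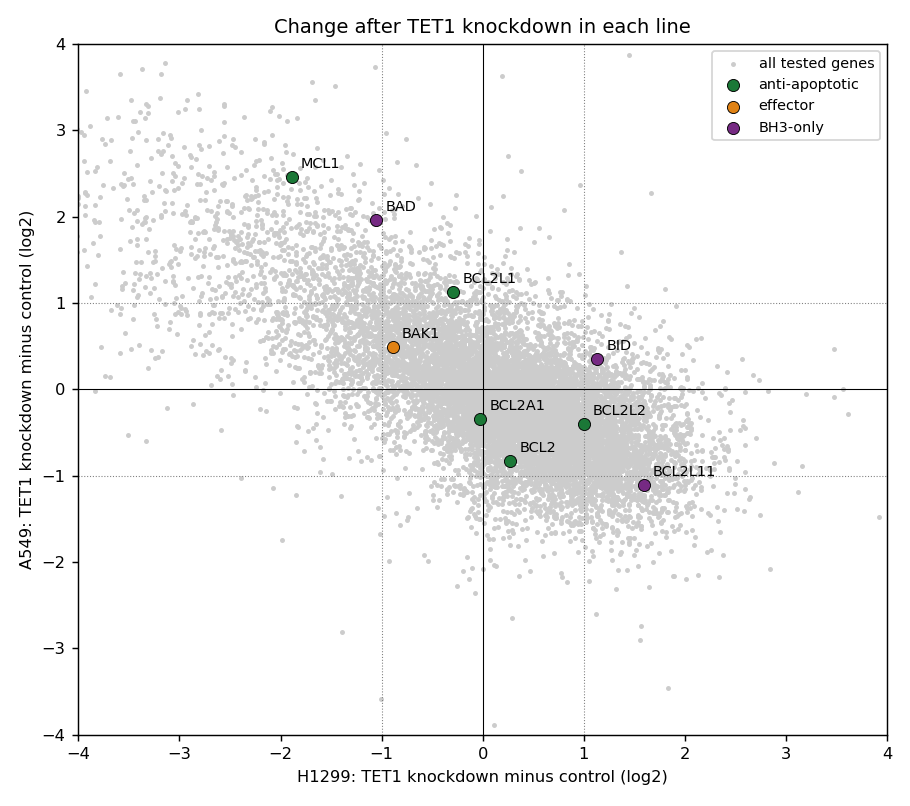
Change after TET1 knockdown (knockdown minus control, log2 of normalized signal) in H1299 on the horizontal axis and in A549 on the vertical axis. Grey points are all tested genes (92 lie outside the plotted range), coloured points are the 9 members that passed the detection filter, and dotted lines mark 2-fold. Most genes, and 7 of the 9 members, lie in the quadrants of opposite sign.

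Among the anti-apoptotic genes, MCL1 differed most between knockdown and control. Its brighter probe, ILMN_1803988, had a normalized log2 signal of 8.23 in the H1299 knockdown and 10.12 in the H1299 control, and of 9.56 in the A549 knockdown and 7.10 in the A549 control. It was detected on all 4 arrays, with raw signals of 413.6 in the H1299 knockdown, 1235.6 in the H1299 control, 1011 in the A549 knockdown and 217.5 in the A549 control. MCL1 in the H1299 knockdown was thus 3.7-fold below the H1299 control, and in the A549 knockdown it was 5.48-fold above the A549 control. A second MCL1 probe detected on all arrays, ILMN_1756806, had the same directions at 1.61-fold lower in H1299 and 1.34-fold higher in A549. The authors' deposited values for the brighter probe gave changes of -1.30 and 1.24 on their own scale.

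BCL2L1, which encodes BCL-XL, had a bright probe, ILMN_1654118, detected on all 4 arrays. Its normalized log2 signal was 11.28 in the H1299 knockdown and 11.57 in the H1299 control, and 12.54 in the A549 knockdown and 11.41 in the A549 control. The A549 knockdown stood above the other 3 arrays, which lay within 0.29 of each other. BCL2L1 in the A549 knockdown was 2.18-fold above the A549 control, and in the H1299 knockdown it was 1.22-fold below the H1299 control. The change in A549 lay between 1.09 and 1.40 on the log2 scale over all 8 processing settings, while the H1299 change turned to 0.12 when arrays were centred on their medians. With 1 detected probe, the settings for detection threshold and choice of probe could not move either change. The second BCL2L1 probe, ILMN_1742410, was detected on no array.

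BCL2L2, which encodes BCL-w, had 1 probe, detected on all 4 arrays. Its normalized log2 signal was 9.16 in the H1299 knockdown and 8.16 in the H1299 control, and 9.64 in the A549 knockdown and 10.04 in the A549 control. The H1299 knockdown was 1.998-fold above its control, just short of 2-fold. In A549 the knockdown was 1.32-fold lower after quantile normalization, although its raw signal of 1061.9 was above the 942.8 of the control, and median centring gave a change of 0.08.

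BCL2A1, which encodes BFL1 and is a target of NF-kB in immune cells, read close to background. The raw signals were 178.8 in the H1299 knockdown and 178.2 in the H1299 control, and 259.9 in the A549 knockdown and 213.7 in the A549 control. It was not detected in the H1299 knockdown. The normalized change in A549 was -0.34, and 0.41 with median centring, while relative to the median of all detected genes these changes were -0.21 and 0.06.

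BCL2, the founding member, had 4 probes, of which 2 were detected on any array. The brightest, ILMN_2246956, was detected on both H1299 arrays, with raw signals of 204.9 in the knockdown and 200.2 in the control (1.21-fold higher after normalization). In A549 its raw signals were 165.3 in the knockdown and 172.9 in the control, both below background, so no fold is given. The other detected probe, ILMN_1801119, was detected in the H1299 control alone.

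**Figure D2:**
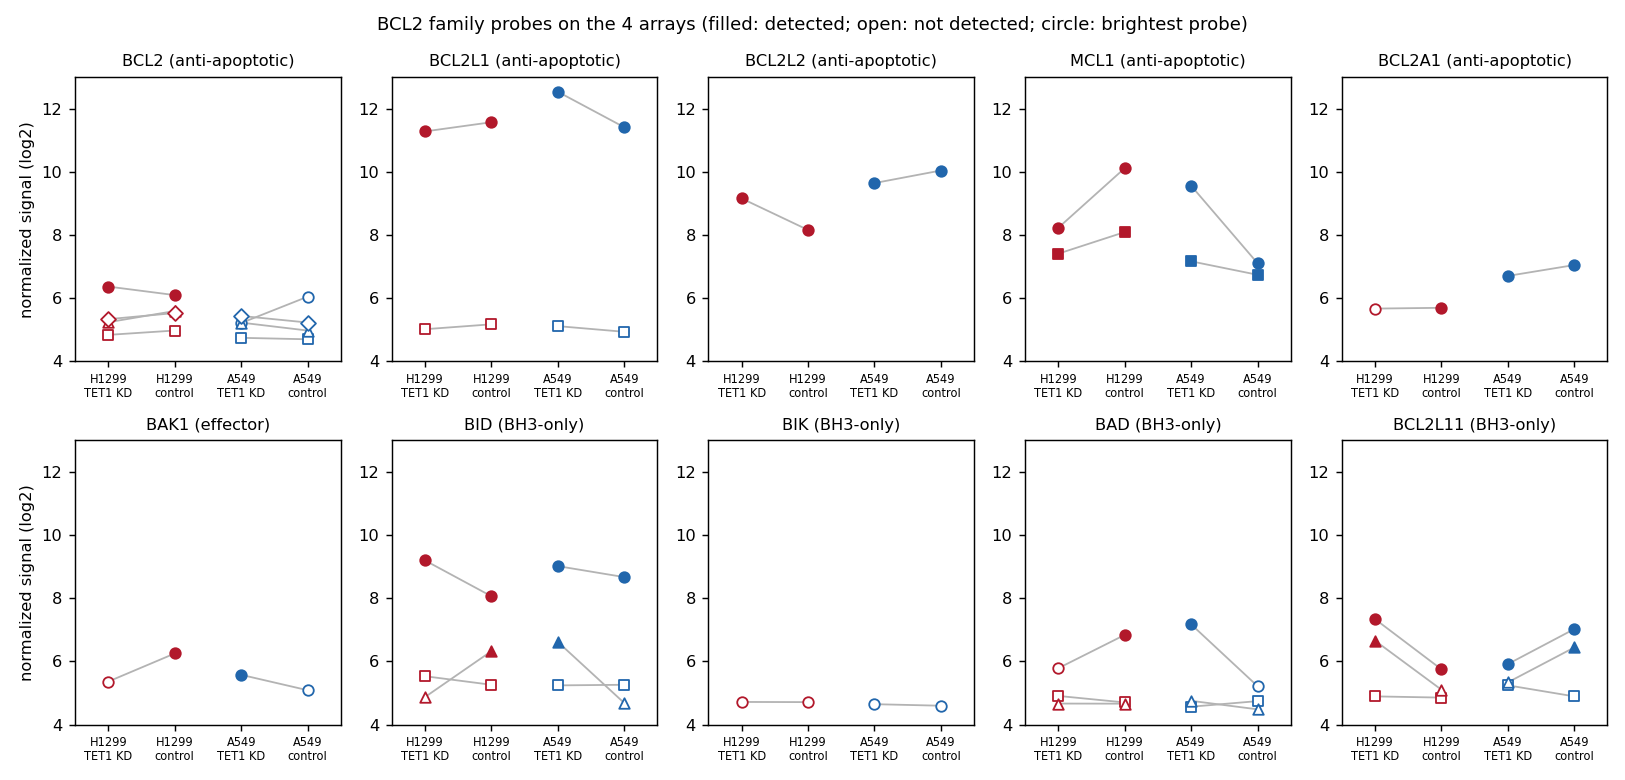
Normalized log2 signal of all 21 member probes on the 4 arrays, 1 panel per gene, with H1299 in red and A549 in blue and the knockdown left of its control. Filled symbols are detected and open symbols are not, circles are the brightest probe of a gene, and lines join the 2 arrays of a line. MCL1 slopes one way and BCL2L11 the other, each in opposite senses in the 2 lines, and BIK lies at background throughout.

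BAK1, the pore-forming effector among the members, had 1 probe near the detection limit. Its raw signals were 168.9 in the H1299 knockdown and 210.1 in the H1299 control, and 182.5 in the A549 knockdown and 147.6 in the A549 control. It was detected in the H1299 control and the A549 knockdown. Taking an undetected array at the lowest normalized value of a detected probe on it, BAK1 was lower by at least 1.17-fold in the H1299 knockdown, and for A549 no fold can be given.

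BCL2L11 encodes BIM, a BH3-only protein that binds all the anti-apoptotic members and is induced by forkhead factors. Its brightest probe, ILMN_2359627, was detected on all 4 arrays, with a normalized log2 signal of 7.34 in the H1299 knockdown and 5.75 in the H1299 control, and of 5.92 in the A549 knockdown and 7.03 in the A549 control. The H1299 knockdown and the A549 control were thus the 2 high arrays. BCL2L11 in the H1299 knockdown was 3.01-fold above the H1299 control, and in the A549 knockdown it was 2.16-fold below the A549 control. A second probe, ILMN_1774997, was detected on the same 2 high arrays only, higher by at least 2.14-fold in the H1299 knockdown and lower by at least 1.88-fold in the A549 knockdown.

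The raw signals of the brightest BCL2L11 probe were 276 in the H1299 knockdown and 180.9 in the H1299 control, against 200.7 in the A549 knockdown and 212.3 in the A549 control. The raw signals in A549 thus lay close together, and the change there, -1.11 after quantile normalization, was -0.44 with median centring, -0.46 without background correction and -0.19 in the authors' deposited values. The change in H1299, 1.59 after quantile normalization, was 1.44 with median centring, 0.68 without background correction and 0.29 in the authors' deposited values. The forkhead factor FOXO3, named for the motif in the BCL2L11 promoter after its values were seen, changed by 0.68 in H1299 and by -1.21 in A549 on its brightest probe, but by -0.85 and -0.14 on another probe detected on all arrays.

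BID encodes a BH3-only protein that caspase-8 cleaves to link death receptors to mitochondria, and its probes disagreed. The brightest, ILMN_1763386, had normalized log2 signals of 9.20 in the H1299 knockdown and 8.07 in the H1299 control, and of 9.02 in the A549 knockdown and 8.67 in the A549 control. On this probe BID was higher in both knockdowns, 2.19-fold in H1299 and 1.27-fold in A549. Another probe, ILMN_2372413, had raw signals of 148.3 in the H1299 knockdown and 215.1 in the H1299 control, and of 251.9 in the A549 knockdown and 128 in the A549 control. It was detected in the H1299 control and the A549 knockdown, so that on it BID was lower by at least 1.23-fold in the H1299 knockdown and higher by at least 1.39-fold in the A549 knockdown. Its remaining probe was detected on no array. The files do not say which transcripts the probes match.

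BAD, a BH3-only protein that AKT phosphorylates and so keeps from BCL-XL, was detected on 1 of its 3 probes, ILMN_1738652. The raw signals of this probe were 182.9 in the H1299 knockdown and 257.3 in the H1299 control, and 312.5 in the A549 knockdown and 151.8 in the A549 control. It was detected in the H1299 control and the A549 knockdown, the pair of arrays on which BAK1 and the second BID probe were detected too. BAD was lower by at least 1.75-fold in the H1299 knockdown and higher by at least 2.05-fold in the A549 knockdown, so that with the undetected side at its bound only the A549 change was past 2-fold. BIK, a BH3-only protein of the endoplasmic reticulum, had raw signals between 121.3 and 138.8 on all arrays and no detection.

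**Figure D3:**
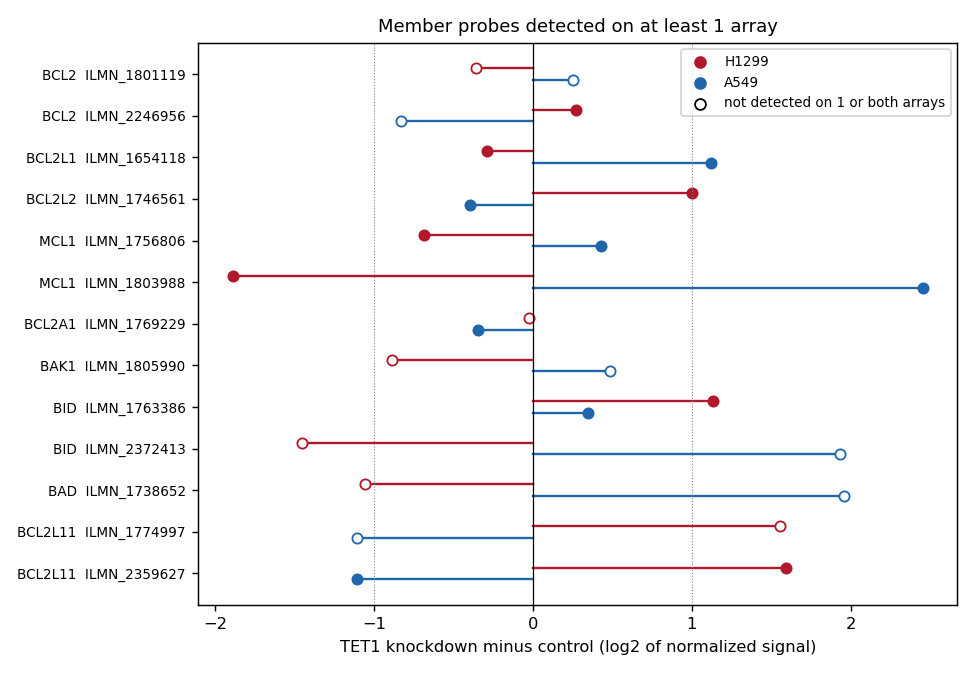
Change after TET1 knockdown (log2 of normalized signal, knockdown minus control) for the 13 member probes detected on at least 1 array, with H1299 in red above A549 in blue for each probe. Open circles mark a line in which the probe was not detected on 1 or both arrays, with the undetected value taken as read, and dotted lines mark 2-fold. The 2 BCL2L11 probes agree in both lines, both MCL1 probes have the same signs, and the 2 BID probes point in opposite directions in H1299.

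Over both lines, limma was fitted to all 12965 genes with line as a block and 1 residual degree of freedom. Its error for a gene follows the usual disagreement of the lines among genes of like signal, not that gene's own. It called none of the 9 members (adjusted p = 1 for each after rounding, Benjamini-Hochberg over all genes), and 0 members had an unadjusted p under 0.05. Over all genes it called 1 higher in the knockdowns (0.00771%) and 0 lower (0%), with 21 genes at an unadjusted p under 0.05. The mean change over the lines was largest for BID, at 0.74 ± 0.97 (SE) on the log2 scale (limma unadjusted p = 0.447). BID was the only tested member whose brightest probe was higher in both knockdowns. On the other detected BID probe, which was lower in the H1299 knockdown, the mean change was 0.24. For MCL1, whose changes in the lines nearly cancel, it was 0.28 ± 0.97 (limma unadjusted p = 0.771), and for BCL2L11 it was 0.24 ± 0.99 (limma unadjusted p = 0.807). These errors are wide enough that a mean change of 2-fold in a member could not have been told from 0.

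Between the lines, the arrays of H1299 and A549 did not overlap for 3 of the 9 members, where 45.7% of all tested genes did not overlap. The 2 arrays of a line are its knockdown and its control, not replicates of a condition. The limma errors here come from the same fit as above. BCL2A1 averaged a normalized log2 signal of 5.68 in H1299 and 6.87 in A549, a difference of -1.19 ± 0.94 (SE; limma adjusted p = 0.901). With the H1299 knockdown below background, BCL2A1 was at least 1.59-fold lower in H1299 than in A549 among the knockdowns, and it was 2.56-fold lower among the controls. BCL2L2 averaged 8.66 in H1299 and 9.84 in A549, a difference of -1.19 ± 0.89 (limma adjusted p = 0.871), and was 1.4-fold lower among the knockdowns and 3.69-fold lower among the controls. BCL2 averaged 6.23 in H1299 and 5.63 in A549, where it was below background, a difference of 0.60 ± 0.87 (limma adjusted p = 0.9997). Among the knockdowns BCL2 was at least 1.79-fold higher in H1299. For the controls, at 6.10 in H1299 and 6.04 in A549, no fold can be given.

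On the brighter MCL1 probe, ILMN_1803988, the difference between the lines had opposite signs by condition. This probe was 2.52-fold lower in H1299 than in A549 among the knockdowns and 8.07-fold higher among the controls. The second MCL1 probe, ILMN_1756806, had no such change of sign. It was 1.18-fold higher in H1299 among the knockdowns and 2.56-fold higher among the controls. BCL2L11 was 2.69-fold higher in H1299 among the knockdowns and 2.42-fold lower among the controls. No member was called between the lines by limma, and 0 had an unadjusted p under 0.05. Over all genes limma called 220 higher (1.7%) and 435 lower (3.36%) in H1299.

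Other genes of the apoptosis pathway were taken from 5 lists of 80 genes, of which 78 had a probe and 65 were tested by limma. None was called for knockdown over both lines, with 0 at an unadjusted p under 0.05. Within the lines, 7 of 64 detected genes were at least 2-fold higher and 7 lower in the H1299 knockdown, and 5 of 64 were higher and 4 lower in the A549 knockdown. Of all detected genes, 18.6% were higher and 14.8% lower in the H1299 knockdown and 11.1% higher and 8.8% lower in the A549 knockdown, shares that are also the background for each list. Signs were opposite in the lines for 54 of the 65 (83.1%), against 77.5% of all tested genes.

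Among other BCL2 family genes, 1 of 11 detected was at least 2-fold higher and 2 lower in the H1299 knockdown, and 2 of 10 were higher and 1 lower in the A549 knockdown. HRK, a BH3-only gene of neurons, was 2.57-fold higher in the H1299 knockdown and not detected in A549. BBC3, which encodes the BH3-only protein PUMA, was 1.37-fold higher in the H1299 knockdown and 2.08-fold lower in the A549 knockdown. BNIP1, a BH3-containing membrane fusion protein, was 2.69-fold lower in the H1299 knockdown and higher by at least 1.58-fold in the A549 knockdown. BAX, the other pore-forming effector, chosen after its values were seen, was detected on its brightest probe in the H1299 control and the A549 knockdown alone, lower by at least 2.53-fold in the H1299 knockdown and higher by at least 3.82-fold in the A549 knockdown. Those are the same 2 arrays on which BAK1 and BAD were detected. Another BAX probe, ILMN_1683300, was detected on these 2 arrays too, with changes of -0.43 in H1299 and 0.37 in A549. No fold can be given for that probe in either line, and the remaining BAX probe was detected on no array.

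Of the genes of the apoptosome, mitochondrial release and caspases, 3 of 16 detected were at least 2-fold higher and 1 lower in the H1299 knockdown, and 1 was higher and 1 lower in the A549 knockdown. CASP6, an executioner caspase gene, was 2.53-fold higher in the H1299 knockdown, and in the A549 knockdown it was 1.01-fold lower. APAF1, the apoptosome scaffold, was 1.67-fold higher in the H1299 knockdown and 2.08-fold lower in the A549 knockdown, and VDAC2, a mitochondrial channel that holds BAK, was 2.32-fold higher and 1.41-fold lower. The 5 detected genes of the list of inhibitor of apoptosis proteins were BIRC2, BIRC3, BIRC5, BIRC6 and XAF1. XAF1 is not itself such an inhibitor. None of these genes was past 2-fold in either line. All 5 were higher in the H1299 knockdown, by 0.33 to 0.94 on the log2 scale, as were 61.5% of all detected genes. In the A549 knockdown 1 of the 5, BIRC3, was higher (42.3% of all), and their median change was -0.48.

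Of the death receptor and adaptor genes, 1 of 10 detected was at least 2-fold higher and 2 lower in the H1299 knockdown, and 1 was higher and 0 lower in the A549 knockdown. TNFRSF10A, a receptor for TRAIL, was 4.34-fold lower in the H1299 knockdown and 1.98-fold higher in the A549 knockdown, while its relative TNFRSF10B was 2.1-fold higher and 1.07-fold lower. TNFRSF1A, the main TNF receptor, was 2.09-fold lower in the H1299 knockdown and 2.29-fold higher in the A549 knockdown.

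Of the genes for turnover and binding partners of MCL1, BAD and BIM, 2 of 22 detected were at least 2-fold higher and 2 lower in the H1299 knockdown, and 1 of 23 was higher and 2 lower in the A549 knockdown. USP9X, a deubiquitinase that stabilises MCL1, was 2.4-fold higher in the H1299 knockdown and 1.47-fold lower in the A549 knockdown. GSK3B, a kinase that marks MCL1 for degradation, was 2.69-fold higher and 2.01-fold lower. TMBIM6, known as BAX inhibitor 1, was 3.82-fold lower in the H1299 knockdown and 2.29-fold higher in the A549 knockdown, and BECN1, an autophagy protein that BCL2 binds, was 3.2-fold lower and 1.8-fold higher.

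Between the lines, limma called 2 of the 65 pathway genes higher and 1 lower in H1299, beside 1.7% and 3.36% of all tested genes. These p-values too rest on 1 knockdown and 1 control array a line, without replicates. HRK, BIRC3 and SFN are named here after their values were seen. HRK was below background on both A549 arrays, and was higher in H1299 than in A549 by at least 23.1-fold among the knockdowns and by at least 5.87-fold among the controls (limma adjusted p = 0.0111 with all values as read). BIRC3, which encodes the inhibitor of apoptosis protein cIAP2, was 2.40 log2 units higher in H1299 than in A549 (limma adjusted p = 0.0086) and detected on all 4 arrays. SFN, which encodes 14-3-3 sigma, was detected on neither H1299 array, and was lower in H1299 than in A549 by at least 43.6-fold among the knockdowns and by at least 54.7-fold among the controls (limma adjusted p = 7.77e-08 with all values as read).

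**Figure D4:**
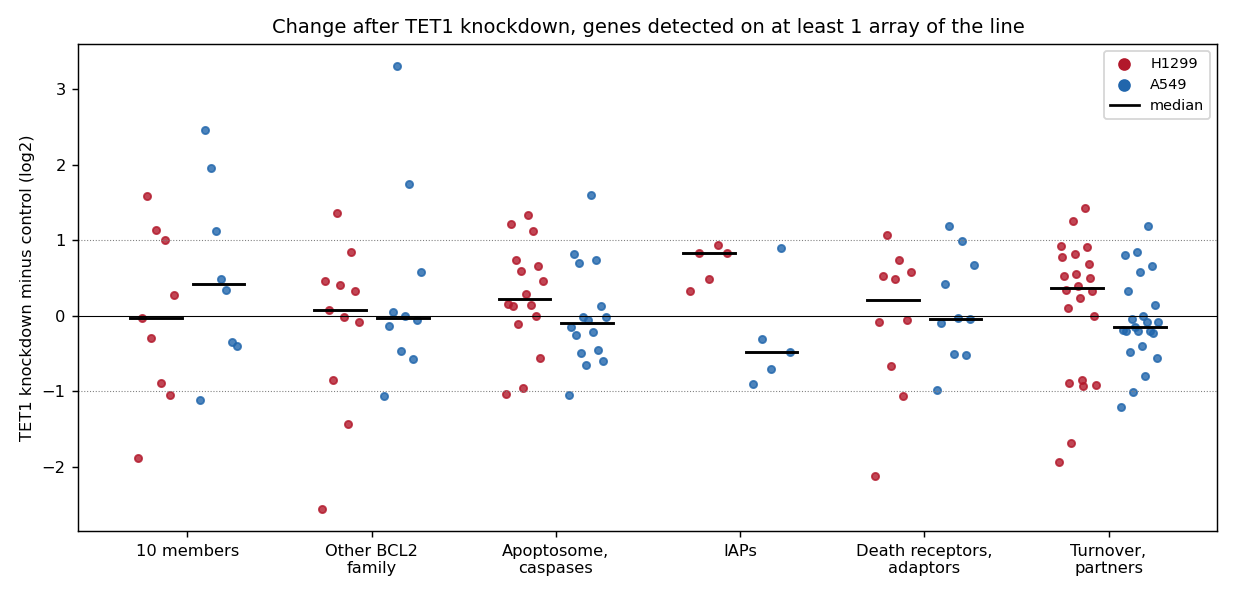
Change after TET1 knockdown (log2 of normalized signal, knockdown minus control) for the 10 members and for 5 lists of other apoptosis genes, with H1299 in red left of A549 in blue. Each point is a gene detected on at least 1 array of the line, black bars are medians, and dotted lines mark 2-fold. The members' medians are -0.02 in H1299 and 0.42 in A549. In the list of inhibitors of apoptosis (IAPs), which also holds XAF1, all 5 detected genes lie above 0 in H1299 and 1 of 5 in A549.

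Patterns like those of 2 members were sought among the 9687 genes detected on all 4 arrays, by the Euclidean distance of the 4 mean-centred log2 values. For MCL1, which had the largest spread over the arrays among the 5 members detected on all of them, the closest genes were USP5 (distance 0.16), HOXB7 (0.18) and SUPT5H (0.31). USP5 changed by -2.01 in H1299 and 2.44 in A549, beside -1.89 and 2.46 for MCL1. For BCL2L2, next in spread, the closest genes were ZNF746 (distance 0.07), LOC100133747 (0.08) and SOX18 (0.08). The likeness is over 4 arrays and is a description only.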

How the data were processed

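Total RNA of 4 samples was measured on 1 Illumina bead array each. The deposited raw table gives, per the file headers, a mean bead signal intensity for every probe, without background subtraction or scaling between arrays, and a detection p-value. The authors' other deposited table, made with lumi per the submitters' processing notes, is close to a log2 scale. Its transformation and centring are not known here, and its medians were 8.28, 8.30, 8.30 and 8.28 in the H1299 knockdown, H1299 control, A549 knockdown and A549 control.

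Background was removed from the intensity by normexp, taking negative controls from the detection p-values (offset 16), quantile normalized and log2 transformed (neqc, limma 3.58.1, R 4.3.3). Symbols were updated through RefSeq names (GRCh38.p14, names only): of 31397, 17761 were current, 3283 were renamed and 10353 kept. Probes without a symbol (3270) or with a symbol changed into a date (54) were dropped. Each gene took its probe with the highest mean normalized signal. Where 1 side was undetected, the fold is a bound, with that side set to the array's lowest detected normalized value or, if higher, to what was read. Limma with line and knockdown and an intensity trend was fitted to genes detected on at least 2 arrays, and with infinite prior degrees of freedom every SE follows the trend over all genes. Arrays pair by cell line, which is the block. P-values thus rest on the usual disagreement of the lines among genes of like signal in these samples. They measure neither a gene's own spread nor a replicate error.

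The members and lists were chosen with earlier results of these data known. Named genes were all members, TET1, CDKN1A, up to 4 genes of each pathway list with the largest change past 2-fold detected on both arrays of the line, and the 3 genes closest in pattern to the 2 members with the largest spread. Some genes under this rule are not reported here. Alternatives were median centring, no background correction, an offset of 50, the deposited values, a detection threshold of 0.05, other probes per gene, other filters, no trend and no block. With 4 arrays, their number limits the precision. Figures were drawn with matplotlib 3.10.9.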

Additional observations from a re-analysis of the deposited data

Results flagged for a closer look

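A difference between the lines drew attention to 3 members and 5 pathway genes, each at least 2-fold in opposite directions in H1299 and A549 (11.7% of all tested genes were). With 1 array a group the difference between the lines was not tested. On the log2 scale, knockdown minus control, MCL1 changed by -1.89 in H1299 and 2.46 in A549. BAD changed by -1.05 in H1299 and 1.96 in A549, with the undetected side of each line taken as read. BCL2L11 changed by 1.59 in H1299 and -1.11 in A549. BAX changed by -2.56 in H1299 and 3.31 in A549 on its brightest probe, and by -0.43 and 0.37 on another. On both probes its H1299 knockdown and its A549 control were undetected. BNIP1 changed by -1.43 in H1299 and 1.75 in A549, with its A549 control undetected. TNFRSF1A changed by -1.07 in H1299 and 1.20 in A549. GSK3B changed by 1.43 in H1299 and -1.01 in A549. TMBIM6 changed by -1.93 in H1299 and 1.19 in A549.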

How the results depend on the processing

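With 4 unreplicated arrays, no alternative adds a measured error within a line, and signals near background limit BAD, BAK1, BCL2A1 and BCL2. No tested member was called over both lines or between the lines under any of the 11 alternatives. With all 4 arrays required, BCL2, BCL2A1, BAK1 and BAD were not tested. With the least bright probe, BCL2 was not tested. MCL1, BAD and BCL2L11 kept their signs in each line under all 7 alternatives within lines, but not every alternative could move them. The detection threshold could not move any of these members. BAD has 1 detected probe, so the choice of probe could not move it either. MCL1 lay between -1.89 and -0.68 in H1299 and between 0.43 and 3.11 in A549. BAD lay between -1.24 and -0.13 in H1299 and between 0.27 and 2.33 in A549. In both lines its change was smallest on the deposited values. BID in H1299 changed by -1.45 on its least bright detected probe and by -0.16 as the mean of its detected probes, in place of 1.13. The count of members at least 2-fold higher in the H1299 knockdown was 0 without background correction and on the deposited values, and 1 with the least bright or the mean probe. The count at least 2-fold lower there was 1 without background correction, with an offset of 50 and on the deposited values. The count at least 2-fold lower in the A549 knockdown was 0 under median centring, no background correction, an offset of 50 and the deposited values. Except under median centring, counts over all detected genes are not given here for these alternatives. The member counts therefore describe the settings and are not a result about the members. Median centring moved the median change of all detected genes by 0.48 in A549 and 0.11 in H1299, and the split of all 2-fold calls in A549 was then 2836 higher and 169 lower, in place of 1464 and 1164. Over both lines the 1 gene called became 0 with all 4 arrays required and with no block. Between lines, the genes called higher and lower in H1299 were 106 and 223 with median centring, 97 and 210 on the deposited values, 119 and 241 with the least bright probe, and 40 and 129 with all 4 arrays required. The cause of these moves was not tested, except that requiring all 4 arrays removes genes. The main fit over both lines pairs the arrays by cell line. Leaving out 1 array leaves no comparison within its line.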
